A study of Mus musculus with 2 samples.

Results

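The 10 DNA replication genes described here are *Mcm2*, *Mcm3*, *Mcm4*, *Mcm5*, *Mcm6*, *Mcm7*, *Pcna*, *Rrm1*, *Rrm2* and *Tk1*. They were chosen by symbol, and they stand among 45777 genes in the deposited table. The table covered the liver RNA of mice of the strain C57BL/6 by the labels (C57BL/6 N by the study's methods) that were fed a high-fat diet (HFD) for 18 weeks from 7 weeks of age. After 13 weeks of diet, 5 weeks before the end, the mice received an adeno-associated virus (AAV) by retro-orbital injection. The control virus carried green fluorescent protein (AAV-GFP), and the other carried the long non-coding RNA *Wee1-AS* (AAV-*Wee1-AS*). Both groups therefore shared the diet and a virus. AAV-*Wee1-AS* used a CMV promoter and the AAV9 serotype, neither of which is specific to hepatocytes. There was 1 library per group. The series' design text speaks of 4 liver samples, while the labels and the table hold 2 libraries, and whether each came from 1 mouse or a pool is not given in the sources used here. The comparison asks how the RNA of replication genes in HFD-fed liver differed between the library with added *Wee1-AS* and its control. Because each group had 1 library, there is no replicate check, no spread between mice and no test. *Wee1-AS* itself was not analysed here.

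DNA replication starts from origins that are licensed when the ORC, CDC6 and CDT1 proteins load the MCM helicase, a ring of MCM subunits that later unwinds the DNA. PCNA is the sliding clamp that holds DNA polymerases on the template, ribonucleotide reductase (RRM1 with RRM2) makes deoxyribonucleotides, and thymidine kinase 1 (TK1) salvages thymidine. Most of these genes are transcribed at the transition from G1 to S phase under E2F factors, and they are usually low in the adult liver, where few hepatocytes divide.

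The sequence in front of the transcription start is shown for 3 members, since E2F factors are known to act there on genes of this group. Each is the 250 bases upstream of the RefSeq start (GRCm38.p6), printed 5′ to 3′ on the strand of the gene. Capitals mark the letters of the E2F core (the letters TTCCCGC, the letters TTCGCGC, the letters TTGGCGC or the letters TTGCCGC, searched on both strands). *Rrm1* (chr7:102441445-102441694, plus strand) had the highest log2 ratio between the libraries, *Mcm6* (chr1:128359706-128359955, minus strand) the most matches, and *Mcm2* (chr6:88898781-88899030, minus strand) the lowest log2 ratio and no match.
Rrm1: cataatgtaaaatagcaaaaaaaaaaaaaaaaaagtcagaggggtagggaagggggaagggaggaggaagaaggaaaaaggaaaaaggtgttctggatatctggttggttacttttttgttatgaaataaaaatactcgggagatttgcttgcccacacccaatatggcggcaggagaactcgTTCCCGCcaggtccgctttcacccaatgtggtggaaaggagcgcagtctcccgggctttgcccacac
Mcm6: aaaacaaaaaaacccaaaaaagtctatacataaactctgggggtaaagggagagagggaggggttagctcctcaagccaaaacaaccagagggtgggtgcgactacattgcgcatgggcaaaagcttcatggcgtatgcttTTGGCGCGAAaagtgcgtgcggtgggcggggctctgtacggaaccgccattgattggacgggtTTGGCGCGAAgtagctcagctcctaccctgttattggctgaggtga
Mcm2: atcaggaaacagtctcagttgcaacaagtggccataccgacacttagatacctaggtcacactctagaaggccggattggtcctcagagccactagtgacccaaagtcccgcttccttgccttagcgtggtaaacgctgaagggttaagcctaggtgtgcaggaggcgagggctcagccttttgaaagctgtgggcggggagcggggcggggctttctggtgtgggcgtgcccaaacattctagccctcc
In *Mcm6*, TTGGCGC on the printed strand overlaps TTCGCGC on the opposite strand in each of the 2 marked runs. The run in *Rrm1* is a single TTCCCGC that begins 67 bases before the start.

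A RefSeq window of 250 bases before to 50 bases after the start was at hand for 9 of the 10 members (not for *Mcm4*), and for *Mcm7* there were 2 windows. The E2F core was found in 6 of the 9 genes, in *Mcm3*, *Mcm5*, *Mcm6*, *Mcm7*, *Rrm1* and *Rrm2*, and in 7 of the 10 windows. It was found in 9.57% of all 32851 windows. Among 97 other replication genes, listed by their role below, 44 of 104 windows held it. The *Mcm6* window had 5 matches, and those of *Mcm3*, *Mcm5* and the first of *Mcm7* had 3 each, some of them overlapping. *Mcm2*, *Pcna* and *Tk1* had none of these letters in the window. The CCAAT box, the letters bound by the factor NF-Y, was present in 9 of the 10 windows and in 37.4% of all windows. The letters TTTGAA or TTCGAA of the CHR element, found in many genes of the late cell cycle, were present in 2 of the 10 windows, those of *Mcm2* and *Mcm7*, and in 19.2% of all. A match is a description of the letters, and no binding was measured in these samples.

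All 10 members were detected in both libraries and passed the count minimum (at least 10 estimated counts in at least 1 library), as did 15857 genes in all. The libraries held 55466182 and 48079335 estimated counts (AAV-GFP and AAV-*Wee1-AS*), of which the members took 0.0138% and 0.0150%. Levels are given in TPM (deposited abundances scaled to the same total in both libraries), which are divided by transcript length and so allow genes to be compared. Member levels ran from 2.13 to 31.8 TPM in the AAV-GFP library and from 3.99 to 35.6 TPM in the AAV-*Wee1-AS* library. The median gene past the count minimum had 3.58 and 4.35 TPM. *Pcna* was the most abundant member in both libraries, followed by *Tk1* and *Mcm7*, and *Mcm4* was the least abundant in both. The order in between differed. In the AAV-GFP library it ran *Mcm2*, *Mcm3*, *Mcm5*, *Mcm6*, *Rrm2*, *Rrm1*, and in the AAV-*Wee1-AS* library it ran *Mcm6*, *Rrm1*, *Rrm2*, *Mcm3*, *Mcm5*, *Mcm2*. With 1 library per group, there is no spread over mice by which neighbours in either order could be set apart. In bulk liver RNA, fewer cells of a type and less RNA per cell cannot be told apart.

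**Figure D1:**
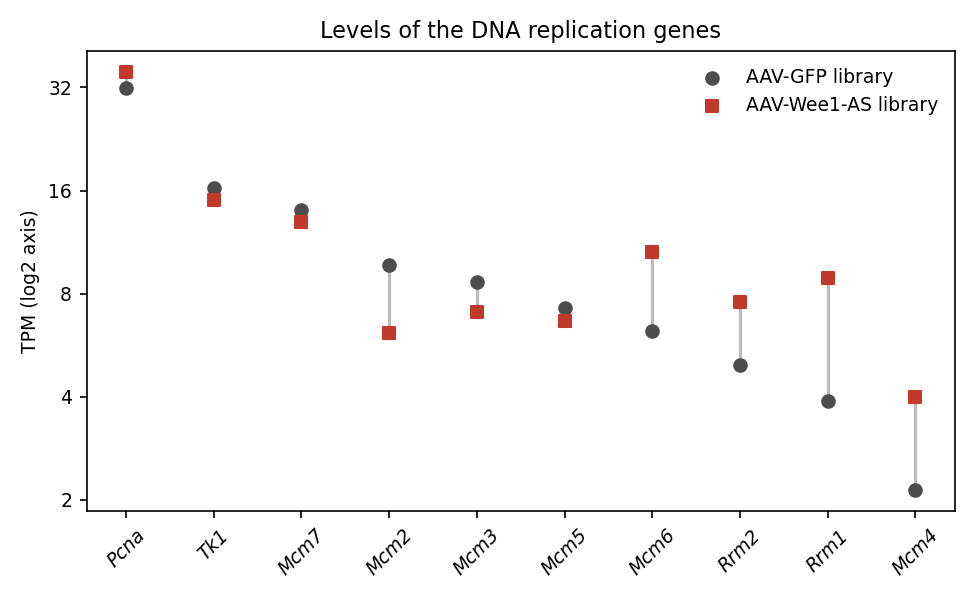
Level of each of the 10 DNA replication genes in TPM (log axis) in the AAV-GFP and AAV-*Wee1-AS* libraries, 1 point per library. *Pcna*, *Tk1* and *Mcm7* lead in both libraries, *Mcm4* is lowest in both at 2.13 and 3.99 TPM, and *Rrm1* has the widest gap, from 3.88 to 8.88 TPM.

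Of the 10 members, *Rrm1*, *Mcm4*, *Mcm6*, *Rrm2* and *Pcna* were higher in the AAV-*Wee1-AS* library, and *Mcm2*, *Mcm3*, *Tk1*, *Mcm5* and *Mcm7* were lower. The difference is given as the log2 ratio of scaled counts, AAV-*Wee1-AS* over AAV-GFP, with an exact 95% interval that covers counting error only. The median log2 ratio of the members was 0.05, and that of all genes past the count minimum was -0.02. The sign of the members' median turned with the scaling, to -0.01 by library totals and to -0.07 by upper quartile. Only *Rrm1* was more than 2-fold higher, 1 of 10 members, where 22.2% of all genes were more than 2-fold higher. No member was below 0.5-fold, where 8.71% of all genes were, so that 31.0% of all genes passed 2-fold in either direction. The counting interval lay wholly above 0 in 5 members (39.1% of all genes), wholly below 0 in 2 (38.0% of all genes), and spanned 0 in 3. It lay wholly to 1 side of 0 in 77.1% of all genes. The members did not share a direction.

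**Figure D2:**
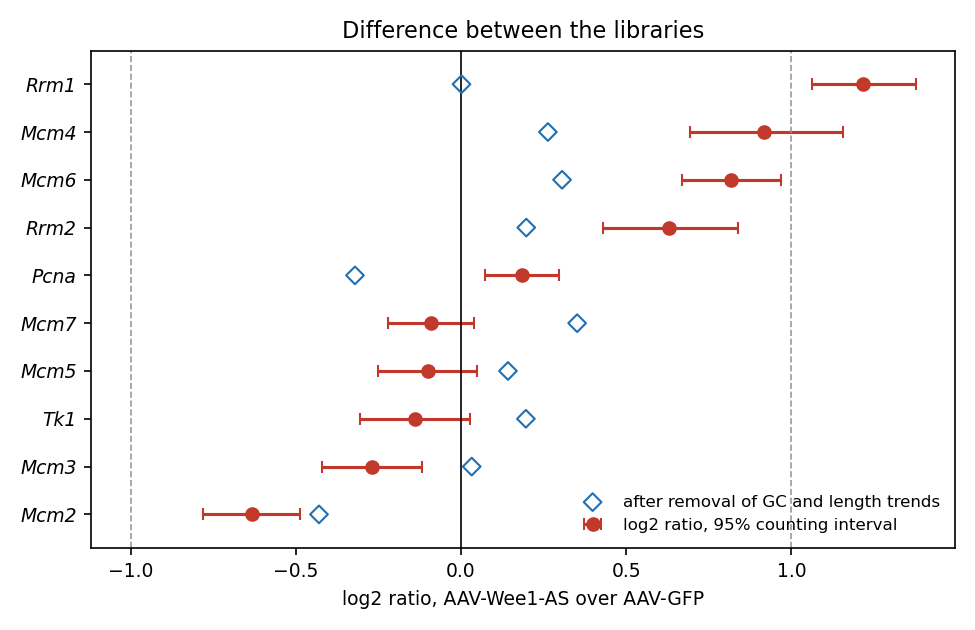
Log2 ratio of AAV-*Wee1-AS* over AAV-GFP for each member (red points, with the exact 95% counting interval as a bar) and the same once the trends of all genes with GC and length were subtracted (open blue diamonds); dashed lines mark 2-fold. *Rrm1* at 1.22 is the only member past 2-fold, and the subtracted values, none past 2-fold, run from -0.43 to 0.35.

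The MCM subunits make up the ring of the replicative helicase, and their RNAs differed between the libraries in opposite directions. *Mcm4* (gene ID 17217, chr16:15623897-15637400 in mm10) had 253 estimated counts with AAV-GFP and 400 with AAV-*Wee1-AS*, 2.13 and 3.99 TPM, a log2 ratio of 0.92 (0.69 to 1.16). *Mcm6* (17219, chr1:128331575-128359705) had 614 and 902 counts, 6.22 and 10.6 TPM, a log2 ratio of 0.82 (0.67 to 0.97). Both were therefore higher in the AAV-*Wee1-AS* library by less than 2-fold, with intervals above 0. With the GC and length trends removed, as described below, the values were 0.26 for *Mcm4* and 0.31 for *Mcm6*, and with those of the matched transcript 0.09 and 0.62. *Mcm2* (17216, chr6:88883474-88898780) had 1077 and 578 counts, 9.69 and 6.14 TPM, a log2 ratio of -0.63 (-0.78 to -0.49). *Mcm3* (17215, chr1:20802966-20820312) had 865 and 598 counts, 8.66 and 7.05 TPM, a log2 ratio of -0.27 (-0.42 to -0.12). Both intervals lay below 0, and *Mcm2* had the lowest log2 ratio of the 10 members. With the GC and length trends removed, *Mcm3* turned to 0.03 and *Mcm2* was at -0.43, or -0.19 with those of the matched transcript. *Mcm5* (17218, chr8:75109468-75128439) had 823 and 639 counts, 7.26 and 6.66 TPM, a log2 ratio of -0.10 (-0.25 to 0.05). *Mcm7* (17220, chr5:138164583-138172111) had 1125 and 880 counts, 14.0 and 12.9 TPM, a log2 ratio of -0.09 (-0.22 to 0.04). For *Mcm5* and *Mcm7*, a difference was not detectable at this depth. With the GC and length trends removed, they turned to 0.14 and 0.35, and *Mcm5* was at -0.44 with its most abundant transcript alone.

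Summed over the 6 MCM subunits, a difference between the 2 libraries was not detectable at this depth. The sum was 4757 estimated counts with AAV-GFP and 3997 with AAV-*Wee1-AS*, a log2 ratio of 0.01 (-0.05 to 0.07), and 47.97 and 47.38 TPM. The interval also spanned 0 with the other scalings tried except upper quartile, which gave -0.11 (-0.17 to -0.05). What differed was the makeup of the sum. *Mcm2* had 20.2% of the MCM TPM with AAV-GFP and 12.96% with AAV-*Wee1-AS*, *Mcm3* had 18.1% and 14.9%, and *Mcm5* had 15.1% and 14.1%. *Mcm6* had 12.97% and 22.4%, *Mcm4* had 4.45% and 8.42%, and *Mcm7* had 29.2% and 27.3%. The subunits were closer to equal shares in the AAV-*Wee1-AS* library, where the highest subunit (*Mcm7*) had 3.24 times the TPM of the lowest (*Mcm4*), against 6.56 times with AAV-GFP. The coefficient of variation over the 6 subunits was 41.3% with AAV-*Wee1-AS* and 49.2% with AAV-GFP. These shares were taken with the GC and length trends left in, and with the trends removed the log2 ratio of *Mcm7*, at 0.35, was above those of *Mcm4* and *Mcm6*, at 0.26 and 0.31.

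**Figure D3:**
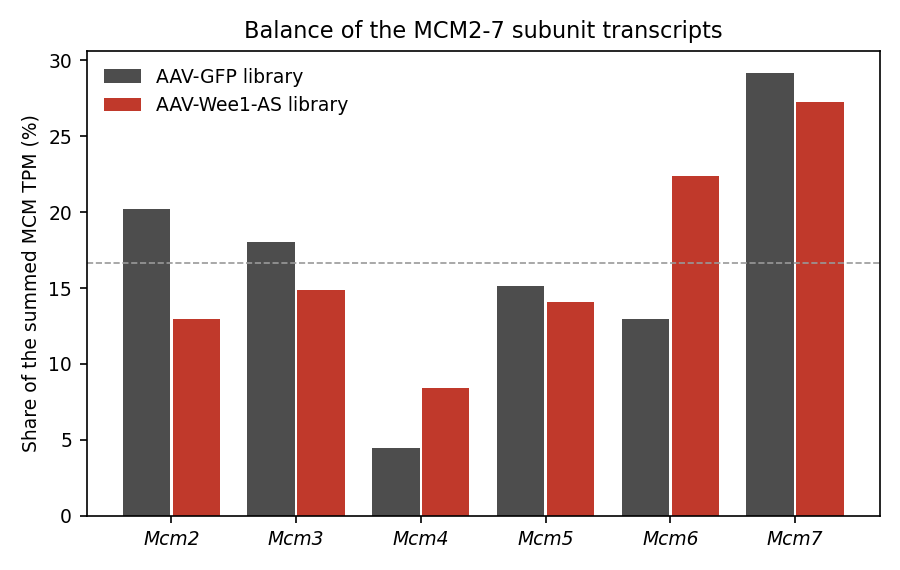
Share of each MCM subunit in the summed MCM TPM (percent) in the AAV-GFP and AAV-*Wee1-AS* libraries, 1 bar per library; the dashed line is the share if all 6 were equal. *Mcm6* stands at 12.97% and 22.4% and *Mcm2* at 20.2% and 12.96%, while *Mcm7* is the highest in both.

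*Pcna* encodes the sliding clamp. It (18538, chr2:132249286-132253180) had 1321 estimated counts with AAV-GFP and 1251 with AAV-*Wee1-AS*, 31.8 and 35.6 TPM, a log2 ratio of 0.18 (0.07 to 0.30). The interval lay above 0, and the difference was far below 2-fold. The direction of *Pcna* turned with the GC and length trends removed, to -0.32, or -0.43 with those of the matched transcript, and upper quartile scaling gave 0.07. Set against the mean of the MCM subunits within each library, *Pcna* had 3.98 times their TPM with AAV-GFP and 4.50 times with AAV-*Wee1-AS*. The order of these 2 ratios rests on values with the GC and length trends left in. With the trends removed, the log2 ratio of *Pcna* (-0.32) was below the median of the 6 MCM subunits (0.20).

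The subunits of ribonucleotide reductase were both higher in the AAV-*Wee1-AS* library. *Rrm1*, the large subunit (20133, chr7:102441695-102469771), had 511 and 991 estimated counts, 3.88 and 8.88 TPM, a log2 ratio of 1.22 (1.06 to 1.38), which is 2.32-fold. Its whole counting interval lay past 2-fold, but the value was below 2-fold in 4 alternatives, at 0.87 with FPKM, 0.67 with the length trend removed, 0.0015 with the GC and length trends removed and 0.18 with those of the matched transcript removed. *Rrm2*, the small subunit of dividing cells (20135, chr12:24708254-24714146), had 356 and 460 counts, 4.95 and 7.55 TPM, a log2 ratio of 0.63 (0.43 to 0.84), which was 0.20 with the GC and length trends removed and 0.04 with those of the matched transcript. *Rrm1* was at 0.784 of the *Rrm2* level with AAV-GFP and at 1.18 times that level with AAV-*Wee1-AS*, an order that rests on values with the GC and length trends left in. *Rrm2b*, the small subunit that also serves resting cells and is not one of the 10 members, had 31 and 91 counts, 0.1997 and 0.738 TPM, a log2 ratio of 1.75 (1.22 to 2.45), which was 4.15 with its most abundant transcript alone, and 0.32 with the trends removed. *Rrm2* exceeded *Rrm2b* in both libraries, 24.8 times in TPM with AAV-GFP and 10.2 times with AAV-*Wee1-AS*. The gap between these 2 ratios also rests on values with the GC and length trends left in. With the trends removed, the log2 ratios were 0.20 for *Rrm2* and 0.32 for *Rrm2b*.

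*Tk1*, the cytosolic thymidine kinase of S phase (21877, chr11:117815519-117826087), had 682 estimated counts with AAV-GFP and 516 with AAV-*Wee1-AS*, 16.2 and 15.0 TPM, a log2 ratio of -0.14 (-0.31 to 0.03). The interval spanned 0, and a difference was not detectable at this depth. The log2 ratio of *Tk1* was -0.34 with curated transcripts alone, 0.20 with the GC and length trends removed and 0.51 with those of the matched transcript removed. *Tk2*, its mitochondrial counterpart and not a member, had 1345 and 864 counts, 17.4 and 13.1 TPM, a log2 ratio of -0.37 (-0.50 to -0.25), which turned to 2.28 with curated transcripts alone. Over all 10 members, the summed counts were 7627 and 7215, a log2 ratio of 0.18 (0.14 to 0.23), or 0.06 (0.02 to 0.11) with upper quartile scaling.

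The gene values are sums over RefSeq transcripts, 21 for the 10 members, of which 15 are curated and 6 predicted. *Mcm2*, *Mcm4*, *Pcna*, *Rrm1* and *Rrm2* have 1 transcript each, so their values do not depend on how reads were divided among transcripts of the gene. Transcripts of 1 gene share most of their exons, and the estimated counts are shares that the authors' program assigned to them, so the counting intervals below do not cover the error of that division. The transcripts of *Mcm5* differed in opposite directions. Its transcript variant 1 had 699 counts with AAV-GFP and 421 with AAV-*Wee1-AS*, a log2 ratio of -0.47 (-0.65 to -0.29), and variant 2 had 124 and 218, a log2 ratio of 1.06 (0.75 to 1.41). Variant 2 thus held 15.1% of the *Mcm5* counts with AAV-GFP and 34.1% with AAV-*Wee1-AS*. These variants begin and end at the same bases and are 3441 and 3417 bases long.

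In *Mcm6*, variant 1 held 97.2% and 92.5% of the counts, 597 and 834, a log2 ratio of 0.74. The longer variant 2 had 17 and 68 counts, a log2 ratio of 2.13 (1.48 to 3.12). In *Mcm7*, variant 1 held 89.7% and 93.4% of the counts and had a log2 ratio of -0.03 (-0.17 to 0.10), while variant 2 had 46 and 13 counts, a log2 ratio of -1.44 (-2.57 to -0.65). The predicted non-coding *Mcm7* transcript X1 had 15 counts with AAV-GFP and 0 with AAV-*Wee1-AS*, at least 4.16-fold lower against a floor of 3 counts. The main transcript of *Mcm6* and that of *Mcm7* were close to their gene values. In *Tk1*, curated variants 1 and 2 had 366 and 259 counts with AAV-GFP and 258 and 140 with AAV-*Wee1-AS*, log2 ratios of -0.24 (-0.48 to -0.01) and -0.62 (-0.93 to -0.32). The predicted *Tk1* transcript X2 had 2 and 66 counts, a log2 ratio of 4.28 (3.398 to 8.38), and held 12.8% of the *Tk1* counts with AAV-*Wee1-AS*. With the table reduced to curated transcripts and the libraries scaled again on them, the log2 ratio of *Tk1* was -0.34. The new scaling by itself moved *Mcm2*, which has 1 transcript, from -0.63 to -0.59.

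Genes that overlap a member on the genome were read for the same reason. *Afmid*, an enzyme of tryptophan breakdown that is well expressed in liver, shares 585 bases with the outermost span of *Tk1* and had 4779 and 4442 counts, a log2 ratio of 0.16 (0.10 to 0.22). *Ap4m1* shares 91 bases with *Mcm7* and had 413 and 444 counts, a log2 ratio of 0.37 (0.17 to 0.56). The kit marks the strand, but the strand setting used in counting is not given in the sources used here, so reads from these shared bases cannot be told apart. The microRNA genes *Mir25*, *Mir93* and *Mir106b* lie inside *Mcm7* and had 4, 0 and 0 counts with AAV-GFP and none with AAV-*Wee1-AS*, in libraries made from poly-A RNA.

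The differences of the members followed the GC content of their transcripts. Across the 10 members, Spearman's coefficient between the log2 ratio and GC content was -0.709, across 94 other replication genes it was -0.701, and across all 14995 genes with a GC value it was -0.673. With transcript length, the coefficients were 0.358, 0.293 and 0.345. These are descriptions across genes of the same 2 libraries, and genes are not independent replicates. The members higher in the AAV-*Wee1-AS* library had the lower GC contents, 43.3% for *Rrm1*, 45.3% for *Pcna*, 45.5% for *Mcm4*, 46.0% for *Rrm2* and 47.3% for *Mcm6*. The members lower in that library lay between 51.7% (*Mcm2*) and 53.4% (*Mcm7*). The GC ranges of the 2 directions did not overlap.

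**Figure D4:**
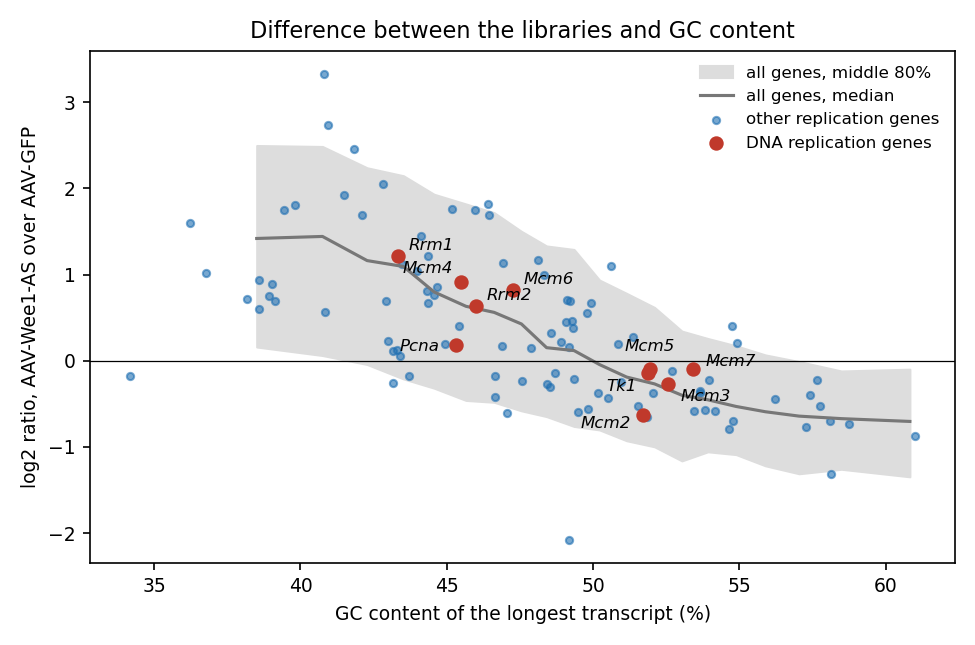
Log2 ratio of AAV-*Wee1-AS* over AAV-GFP against the GC content of the longest transcript (percent) for the 10 members (red) and 94 other replication genes (blue); the grey line and band are the median and the middle 80% of all genes in 20 groups by GC content. The 5 members with a ratio above 0 lie at or below 47.3% GC, the 5 others at or above 51.7%, and all 10 lie inside the band.

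A smooth trend of the log2 ratio with GC content and transcript length, fitted over all genes, was subtracted from each value. The trend gave 1.21 at the GC content and length of *Rrm1*, and what remained of its log2 ratio of 1.22 was 0.0015. It gave 0.66 for *Mcm4*, 0.51 for *Mcm6*, 0.43 for *Rrm2* and 0.51 for *Pcna*, which left 0.26, 0.31, 0.20 and -0.32. For the members that were lower, it left -0.43 for *Mcm2*, 0.03 for *Mcm3*, 0.14 for *Mcm5*, 0.35 for *Mcm7* and 0.20 for *Tk1*. So *Mcm2* and *Pcna* lay below the trend, 8 members lay on or above it, the median was 0.17, and no member was past 2-fold. Above the trend lay 7462 of all 14995 genes and below it 7533, with a median of -0.003. Of all 14995 genes, 1125 were then more than 2-fold higher and 1261 below 0.5-fold, where 3527 and 1381 of 15857 were before. The share of genes past 2-fold that were higher was thus 71.9% before the subtraction and 47.2% afterwards. With 1 library per group, an effect of GC content on library making and a difference between the livers along GC content cannot be told apart. The longest annotated transcript is not always the main one. With the annotated transcript matched to the most abundant RefSeq transcript of each gene, the GC content of *Mcm2* was 55.5% and that of *Tk1* 55.5%. The values left were then -0.19 for *Mcm2*, -0.03 for *Mcm3*, 0.51 for *Tk1*, 0.62 for *Mcm6* and -0.43 for *Pcna*.

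The members were next set beside 97 other replication genes in 8 lists by role, of which 94 passed the count minimum. Of these, 21 were more than 2-fold higher in the AAV-*Wee1-AS* library (22.2% of all genes were) and 2 below 0.5-fold (8.71% of all genes), and the median log2 ratio was 0.21 (all genes -0.02). After removal of the GC and length trends, 8 were higher past 2-fold (*Mcm8*, *Topbp1*, *Wdhd1*, *Rfc1*, *Rad18*, *Paics*, *Atr* and *Chek1*) and 4 lower (*Cdc6*, *Pclaf*, *Rpa3* and *Ctps2*), where 1125 and 1261 of all 14995 genes were, and the median was -0.07. The other genes of these 8 lists named as past 2-fold were within it once these trends were removed. With those of the matched transcript removed, *Topbp1* (0.93) and *Paics* (0.87) were within 2-fold, while *Rad18* (1.096) and *Atr* (1.495) were past it. Licensing factors had a median of 0.61 over 12 genes (-0.21 with the trends removed), with *Mcm8* (24 and 72 counts, log2 ratio 1.76), *Orc2* (79 and 155, 1.21) and *Orc4* (172 and 291, 1.01, but -0.49 after removal of the trends) past 2-fold higher. *Orc4* was also within 2-fold by library totals (0.96), by totals without the 20 most abundant genes (0.96), by upper quartile (0.90) and with FPKM (0.47, pseudocount 1). *Mcm8* and *Orc2* were within it with FPKM too (pseudocount 1). *Cdc6*, which loads the MCM ring with ORC, had 103 and 19 counts, a log2 ratio of -2.07 (-2.96 to -1.46), which was -2.38 after removal of the trends, -5.45 with the most abundant transcript alone, and within 2-fold at -0.31 with FPKM and -0.52 with TPM (pseudocount 1 in both). *Mcm9*, the partner of MCM8 in repair, had 168 and 224 counts (0.67, but -0.63 with curated transcripts alone). *Mcm10*, a factor that helps to activate the helicase, had 3061 and 2316 counts (-0.14), all of them assigned to 1 predicted transcript.

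Genes that turn the loaded MCM ring into an active helicase had a median of 0.46 over 11 genes (the same with the trends removed), and *Topbp1* (185 and 550 counts, log2 ratio 1.82), *Wdhd1* (31 and 91, 1.75) and *Gins1* (68 and 126, 1.13) were past 2-fold higher. DNA polymerases and primase had a median of 0.28 over 12 genes (0.11 with the trends removed), with *Pola1* (48 and 157, 1.93), *Pole* (144 and 260, 1.10) and *Prim1* (91 and 158, 1.04) past 2-fold higher. With the most abundant transcript alone, *Topbp1* was at 7.64 and *Pola1* at 6.26. With FPKM (pseudocount 1), *Topbp1* (0.93), *Gins1* (0.64), *Pola1* (0.42), *Wdhd1*, *Pole* and *Prim1* were all within 2-fold. With TPM (pseudocount 1), *Pola1* (0.68) and the others of these genes were within it, but *Topbp1* (1.23) was not. Clamp loaders and partners of PCNA had a median of -0.05 over 12 genes (-0.07 with the trends removed), of either sign among the alternatives. There, the clamp unloader *Atad5* (14 and 72, 2.45), *Rad18* (23 and 85, 2.05, but 0.81 with curated transcripts alone), which ubiquitinates PCNA, and the clamp loader subunit *Rfc4* (75 and 138, 1.12) were higher and *Chtf18* (57 and 18, -1.31) was lower. With FPKM (pseudocount 1), *Rad18* (0.49), *Atad5* (0.19), *Rfc4* and *Chtf18* (-0.22) were all within 2-fold. Lagging strand and single-strand binding genes had a median of -0.27 over 10 genes (-0.07 with the trends removed, and 0.04 with the most abundant transcript alone), with *Top1*, which relaxes DNA ahead of the fork, alone past 2-fold (714 and 1930, 1.70). Nucleotide supply had a median of -0.22 over 20 genes (-0.31 with the trends removed). Its intervals lay below 0 in 11 genes (38.0% of all genes) and above 0 in 7 (39.1% of all genes), and the purine synthesis genes *Ppat* (368 and 840, 1.45) and *Paics* (3419 and 6419, 1.17) were past 2-fold higher, as was *Rrm2b*. *Rrm2b* was within 2-fold with FPKM (0.32) and with TPM (0.53, pseudocount 1 in both). *Ppat* was within it with FPKM (pseudocount 1).

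The replication checkpoint list, the kinases and adaptors that answer to stalled forks, had a median of 0.56 over 11 genes (0.24 with the trends removed). *Atr*, its central kinase, had 68 and 584 counts, a log2 ratio of 3.32 (3.002 to 3.75), which was 1.59 after removal of the trends and 0.94 with FPKM (pseudocount 1). *Etaa1* (47 and 141, 1.80), an activator of ATR, and *Rad17* (192 and 488, 1.598) were also past 2-fold higher, as was the effector kinase gene *Chek1* (9 and 60, 2.73). *Etaa1* was within 2-fold with FPKM (0.45) and with TPM (0.72, pseudocount 1 in both), and was at 1.08 with the most abundant transcript alone. *Chek1* was within 2-fold with FPKM and with TPM too (pseudocount 1 in both). Histone supply to new DNA had a median of 0.49 over 6 genes, none past 2-fold, from *Asf1b* (122 and 64, -0.65) to *Nasp* (326 and 460, 0.76). With the trends removed, its median was -0.31, *Nasp* was at -0.50, and 5 of the 6 genes were below 0 (7533 of all 14995 genes were). The members, with a median of 0.05 and 1 gene past 2-fold, were thus below the medians of 5 of the 8 lists, but with the trends removed, at a median of 0.17, they were below those of 2 of the 8. A separate list of 15 mitotic genes had a median of 0.08, with 3 genes past 2-fold higher (22.2% of all genes), *Kif11* (10 and 37, 1.94), *Nusap1* (10 and 36, 1.898) and *Mki67* (67 and 135, 1.25), and 4 lower (8.71% of all genes), *Aurkb* (87 and 20, -1.77), *Plk1* (101 and 28, -1.53), *Cdc20* (218 and 82, -1.13) and *Ccnb2* (128 and 47, -1.15). With the trends removed, the mitotic median was -0.27, with 0 genes past 2-fold higher and 3 lower (*Ccnb1*, *Aurkb* and *Ccnb2*), where 1125 and 1261 of all 14995 genes were. The median was -0.72 with curated transcripts alone. With FPKM (pseudocount 1), the mitotic genes named here were all within 2-fold. The mitotic genes were at low levels, with a median of 0.736 and 0.568 TPM, against 7.96 and 8.22 TPM for the members.

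**Figure D5:**
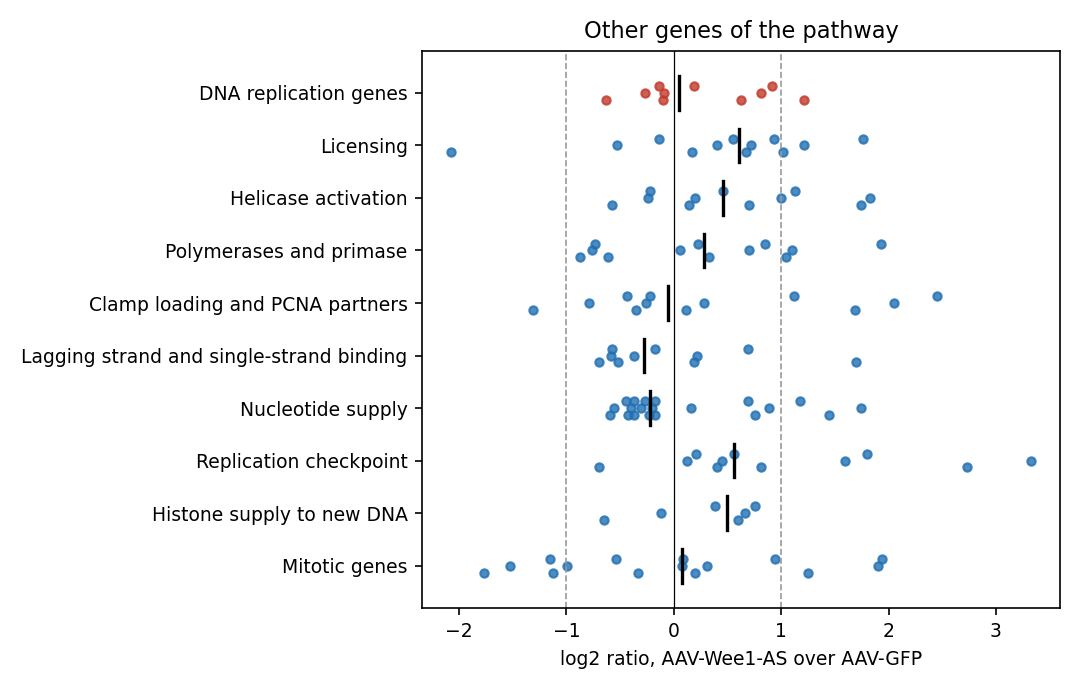
Log2 ratio of AAV-*Wee1-AS* over AAV-GFP for each gene of the member list, the 8 replication lists and the mitotic list, 1 point per gene; black ticks are list medians and dashed lines mark 2-fold. The members run from -0.63 to 1.22, within the wider range of the other lists, which reach 3.32 (*Atr*) and -2.07 (*Cdc6*).

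Replication genes are read in liver from dividing cells of any type, so marker genes were read in the same libraries. Hepatocyte markers summed to 76786 TPM with AAV-GFP and 86251 TPM with AAV-*Wee1-AS*, so the label of liver was met, and *Cps1* was the 1 gene of 6 past 2-fold higher (22.2% of all genes), with a log2 ratio of 1.21, but 0.43 with the trends removed. *Alb* (0.53) and *Cyp2e1* (0.21) were also higher, and *Ttr* (-0.62), *Tat* (-0.50) and *Apoa1* (-0.26) were lower. Kupffer cell and macrophage markers summed to 428 and 332 TPM, with 3 of 8 genes past 2-fold higher (22.2% of all genes), namely *Marco* (1.604), *Vsig4* (1.52) and *Timd4* (1.40), of which *Marco* alone stayed past 2-fold with the trends removed. *Cd68* (-0.88), *Cd5l* (-0.76), *Csf1r* (-0.40) and *Clec4f* (-0.15) had intervals below 0. Stellate cell markers summed to 97.9 and 124 TPM, of which *Dcn* held 74.2 and 92.0 TPM. Of 6 genes, 2 were past 2-fold higher (22.2% of all genes) and 1 lower (8.71% of all genes). The higher ones were *Rgs5* (1.58, but 0.34 with the trends removed) and *Lrat* (1.46, but -0.03 with the trends of the matched transcript removed). The lower one was *Acta2* (-1.73). *Dcn* (0.33, but -1.23 with the trends removed) and *Reln* (0.25) had intervals above 0, and *Des* (-0.59) had one below 0. Neutrophil and monocyte markers summed to 15.0 and 7.64 TPM. Of the 4 past the count minimum, 2 were lower past 2-fold (8.71% of all genes), *S100a9* (-1.31) and *Ly6c2* (-1.02). *S100a8* (-0.42) had an interval that spanned 0, *Ccr2* (0.68) had one above 0, and *Ly6g* was under the count minimum. *S100a9* was within 2-fold with FPKM (pseudocount 1). *Ly6c2* was within 2-fold at -0.98 with prior count 5, and at -0.69 with FPKM and -0.85 with TPM (pseudocount 1 in both). It was also within 2-fold at -0.97 with the length trend removed and at -0.82 with the trends of the matched transcript removed. Lymphocyte markers summed to 6.18 and 5.36 TPM, with *Nkg7* (-1.02, but -0.48 with the trends removed) lower, *Ptprc* (1.13, but -0.46 after removal of the trends) higher, and the B cell gene *Ms4a1* at 0 and 23 counts. Erythroid markers summed to 1129 and 625 TPM, with *Tfrc* (2.42, but 0.96 with the trends removed) past 2-fold higher, and *Hbb-bs* (-0.93) and *Alas2* (-0.37) with intervals below 0. Endothelial markers summed to 126 and 104 TPM, from *Clec4g* (-0.50) to *Kdr* (0.55, but -0.07 with the length trend removed). Cholangiocyte markers summed to 3.77 and 3.59 TPM, from *Krt19* (-0.67, but 0.08 with the trends removed) to *Sox9* (0.79). No gene was past 2-fold in either list. The part of these cell types in the values of the members was not tested.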

How the data were processed

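The members and gene lists were chosen with earlier results of these data known. Poly-A RNA of mouse liver was sequenced as paired ends from a stranded kit, 1 library for each of the 2 groups. The submitters' processing notes name Trimmomatic 0.38, HISAT2 2.1.0, SAMtools 1.9 and StringTie 2.1.3b with the build mm10. For each of 129299 RefSeq transcripts, the authors deposited an estimated count (not normalized, assigned among overlapping transcripts), FPKM and TPM. The deposited FPKM values are scaled to transcript length and library size, and the deposited TPM values are scaled so that both libraries have the same sum.

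Estimated counts, whole numbers as deposited, were summed per gene symbol and scaled with TMM in edgeR 4.0.16 (R 4.3.3), and log2 ratios used a prior count of 2. A gene was kept where either library had 10 or more counts. Exact (Clopper-Pearson) 95% intervals cover counting error only. Total counts were 55466182 and 48079335. With 1 library per group no test was possible, and the genes past 2-fold (ratio above 2 or below 0.5) were counted. GC content and length came from the longest GENCODE M21 transcript of the symbol (14995 genes, 94.6% of those kept), and their trends were fitted by lowess (span 0.3, 5 cycles). The script was tested on simulated data. Promoter windows came from RefSeq (GRCm38.p6). Genes were named by a rule: all members, their paralogs, genes overlapping a member, and of each list the genes past 2-fold with 10 or more counts in each library (the 2 highest and 2 lowest where there were over 4), or the highest and the lowest where none was. *Ms4a1*, *Chek1*, *Mki67*, *Cdc20*, *Ccnb2*, *Rfc1*, *Pclaf*, *Rpa3*, *Ctps2*, *Ccnb1* and the hepatocyte, macrophage, stellate cell, neutrophil and erythroid markers within 2-fold were named after their values were seen. Alternatives were scaling, count filter, prior count, unit (FPKM or TPM), choice of transcripts and removal of trends. Member proteins were not analysed here.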

Additional observations from a re-analysis of the deposited data

How the results depend on the processing

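The log2 ratios of the members, the counts past 2-fold and the list medians were recomputed under 18 alternatives, of which 16 were planned and 2 were added after the data had been seen (TMM factors from the kept genes, and GC and length trends taken from the matched transcript). Other named genes had 17 or 18, where a filter left no value, and the sums over members had 9. MCM shares, ratios within a library and transcript values had none. Of 180 member values, 150 stayed within their counting interval. All members passed every count filter, so the alternatives with another filter could not change a member value. The other prior counts hardly changed one. *Rrm1* stayed past 2-fold in 14 alternatives. No member was more than 2-fold higher, 0 in place of 1, with FPKM (pseudocount 1), with the length trend removed, with the GC and length trends removed, and with those of the matched transcript removed. *Mcm3* (1 alternative) and *Mcm5*, *Mcm7*, *Pcna* and *Tk1* (2 each) changed sign, each only where GC and length trends were removed, and no scaling turned a member. Without removal of trends, *Rrm1* ran from 0.87 to 1.26, *Mcm4* from 0.52 to 0.96, *Mcm6* from 0.60 to 0.86 and *Mcm2* from -0.75 to -0.54. Over all genes, the number more than 2-fold higher (3527) was 1029 with FPKM and 1608 with TPM (pseudocount 1), 1125 with the GC and length trends removed and 916 with those of the matched transcript removed. The number below 0.5-fold (1381) was 2126 with no count filter, 884 where both libraries needed 10 counts, 825 where 1 needed 50, 307 with FPKM and 438 with TPM (pseudocount 1). The share of genes past 2-fold that were higher was 71.9%, and it was 60.1% with the length trend removed, 47.2% with both trends removed and 45.7% with those of the matched transcript. Upper quartile scaling moved the median of all genes from -0.02 to -0.13, and the members with it. *Orc4* reversed to -0.49 with the trends removed and to -0.74 with those of the matched transcript, *Ptprc* to -0.46 and -0.26, and to -6.14 with curated transcripts alone, and *Lrat* to -0.028 with the trends of the matched transcript. *Mcm9* turned to -0.63 and *Tk2* to 2.28 with curated transcripts alone, *Tfrc* was at 8.88 and *Orc4* at 2.27 with the most abundant transcript alone, *Ly6c2* at -2.13 with curated transcripts alone, and the medians of the licensing and histone supply lists turned to -0.21 and -0.31 with the trends removed. In other alternatives *Ly6c2* and *Orc4* were within 2-fold, such as *Ly6c2* at -0.69 with FPKM (pseudocount 1) and *Orc4* at 0.96 by library totals. The causes of these changes were not tested.

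No paired analysis was possible because each group had 1 library, and leaving a replicate out gives no comparison. Depth limits the transcripts with under 100 counts. The intervals of *Mcm5*, *Mcm7* and *Tk1* spanned 0 at this depth, but depth is not their only limit. Among the alternatives their values ran beyond these intervals, from -0.44 to 0.14 for *Mcm5*, from -0.21 to 0.35 for *Mcm7* and from -0.34 to 0.51 for *Tk1*.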

Other observations

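*Mcm4* has a close neighbour. *Prkdc*, the catalytic subunit of the DNA-dependent protein kinase of double-strand break repair, lies with its span from chr16:15637444-15842239 (mm10), 43 bases from that of *Mcm4*. *Prkdc* had 202 estimated counts with AAV-GFP and 394 with AAV-*Wee1-AS*, a log2 ratio of 1.22 (0.98 to 1.48), where *Mcm4* had 253 and 400 counts and 0.92 (0.69 to 1.16). Both were higher in the AAV-*Wee1-AS* library, and both were of low GC content, 43.3% for *Prkdc* and 45.5% for *Mcm4*. The pair was chosen after its values had been seen.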
